A study of Homo sapiens with 24 samples.

Results

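m6A was described on the transcripts of 39 genes of FGF, EGF and RAS-MAPK signaling, across 6 cell populations of human pancreatic differentiation. The genes were listed by symbol and not by a measured value, and they were chosen with earlier results of these data known. A peak belonged to a member when the Ensembl identifier of that gene stood among the gene identifiers of the peak. The 6 deposited lists held 228472 peaks on 27089 annotated genes, and 496 of these peaks belonged to members. They were 59 peaks for hPSC, 73 for DE, 76 for PP, 61 for hILO, 111 for WT PP and 116 for A5-KO PP, on 38 of the 39 genes.

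m6A-seq pulls down fragments of RNA that an N6-methyladenosine antibody binds (IP) and reads them beside untreated fragments (input), and a stretch where IP reads exceed input reads is called a peak. The series had 24 libraries, 2 IP and 2 input libraries for each population, and 1 peak list per population made from its libraries together. No list held values per library, so the spread between replicates is unknown here and populations were compared without a test. All cells came from MEL1, a human embryonic stem cell line that carries GFP in 1 allele of the insulin gene, and the undifferentiated cells were grown on mouse feeder cells.

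The first batch was a differentiation series from pluripotent stem cells (hPSC) over definitive endoderm (DE) and pancreatic progenitors (PP) to islet-like organoids (hILO), with mRNA and a SYSY antibody. The second batch compared PP of the unedited line (WT PP) with PP of an ALKBH5 knockout line (A5-KO PP), with total RNA, a Millipore antibody and another library kit. ALKBH5 removes m6A from RNA. The knockout line was made with CRISPR-Cpf1 against the first exon and grown from picked colonies. Antibody, RNA and kit differed between the batches, so PP and WT PP are given side by side and not compared. The media of the study held ligands of the pathway. bFGF, the product of FGF2, was at 10 ng/ml in the hPSC medium. KGF, a ligand of FGFR2, was at 50 ng/ml from day 4 to day 8 in the cultures that became PP and hILO, and EGF was at 50 ng/ml from day 9 to day 14.

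FGF ligands bind FGF receptors, and EGF and neuregulins bind receptors of the EGF receptor family. Both kinds of receptor are tyrosine kinases, which reach RAS through adaptor and exchange proteins (FRS2, FRS3, GRB2, SOS1 and SOS2). RAS then turns on the kinase cascade of RAF, MEK (MAP2K1 and MAP2K2) and ERK, of which MAPK3 encodes one form. NF1 turns RAS off. ERK activity induces its own inhibitors, the dual-specificity phosphatases (DUSP) and the Sprouty and SPRED proteins, and the ETS factors ETV4 and ETV5. In pancreas development FGF signaling keeps progenitors dividing, and FGF signaling also supports self-renewal of human pluripotent cells. m6A lies mostly in long internal exons and near stop codons, in the sequence DRACH, in which D stands for any base but C, R for a purine and H for any base but G. GGAC is the core of its most frequent forms.

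Coordinates and read counts did not always belong together in the deposited rows. Within each list, 4040 to 9879 peaks stood out of the gene order of the peak numbers, while the counts followed that order. Counts were therefore matched back to the peaks, from the summed IP and input reads, the peak length and the reads per base of the same gene in the other lists. A match with a weight above 0.9 was found for 368 of the 496 member peaks (74.2%), and for 73.4% of these the counts stood on another row. The IP to input ratio took no part in the matching. At peaks with the same midpoint, its Spearman correlation between WT PP and A5-KO PP was 0.36 over 2481 peaks as listed and 0.81 over 2186 matched peaks, and over the 15 pairs of lists the values ranged from 0.02 to 0.46 as listed and from 0.50 to 0.81 when matched. Positions, overlaps and sequences of peaks do not depend on the matching. Read counts and ratios below are given for matched peaks, and the match is an estimate. In PP, for example, the only SPRY2 peak was 125 nt long and was matched to 5787 input reads, an input level of 6625 RPKM (input reads per kilobase of peak, scaled to the input reads in all peaks of the list), far above that of SPRY2 in the other lists. The peak numbers show gaps, and 0.136% of the numbered peaks of hPSC, 1.42% of DE, 4.23% of PP, 3.86% of hILO, 9.51% of WT PP and 4.72% of A5-KO PP were not listed. Where a list has no peak on a gene or stretch, the peak may thus be one that was not listed.

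The matched member peaks held 13695 to 61254 input reads per list, and over all peaks the median count per peak was 33 for A5-KO PP at the lowest and 302 for hILO at the highest. Peaks on marker transcripts did not keep to single populations. The 4 DE markers (SOX17, FOXA2, CXCR4 and GATA6) had peaks in DE, WT PP and A5-KO PP, 3 of them in PP and in hILO, and 1 in hPSC. All 5 progenitor markers had a peak in PP, hILO, WT PP and A5-KO PP, 2 in hPSC and 1 in DE. All 4 endocrine markers had a peak in hILO and 1, CHGA, in every other list. Of the 4 pluripotency markers, 3 had a peak in hPSC and in DE, 2 in PP, 1 in hILO and none in batch 2, and DNMT3B had none in hPSC. ALKBH5 itself had 3 peaks in each stage list, 4 for WT PP and 5 for A5-KO PP. A coding peak in the first coding exon was listed in every population, and in A5-KO PP it had 216 input and 717 IP reads. Counts over a peak do not show whether that exon was edited.

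The following stretches carried peaks that the results turn on. They are given on the transcript strand of GRCh38, and they were read from the genome and not from the cells. The first 4 lie in coding sequence, with each DRACH site in capitals. They are the part, or the central 300 nt, of the stretch that most lists had in a peak, 6 of 6 lists for SPRED1, SPRY1 and SPRY4 and 5 lists for FRS2.
SPRED1, chr15:38351200-38351499, plus strand: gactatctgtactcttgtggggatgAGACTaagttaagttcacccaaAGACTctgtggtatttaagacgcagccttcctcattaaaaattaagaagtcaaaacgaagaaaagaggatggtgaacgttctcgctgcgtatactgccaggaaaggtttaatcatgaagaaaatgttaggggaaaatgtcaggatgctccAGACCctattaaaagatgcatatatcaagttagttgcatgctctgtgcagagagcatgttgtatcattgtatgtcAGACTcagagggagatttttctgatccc
SPRY1, chr4:123402098-123402297, plus strand: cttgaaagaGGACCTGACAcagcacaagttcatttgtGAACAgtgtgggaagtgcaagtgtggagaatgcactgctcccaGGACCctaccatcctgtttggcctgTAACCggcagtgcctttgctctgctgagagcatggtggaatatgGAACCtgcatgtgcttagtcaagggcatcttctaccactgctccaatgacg
SPRY4, chr5:142314427-142314576, minus strand: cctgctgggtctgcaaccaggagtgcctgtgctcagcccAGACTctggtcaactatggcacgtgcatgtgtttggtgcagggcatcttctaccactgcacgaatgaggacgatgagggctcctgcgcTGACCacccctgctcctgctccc
FRS2, chr12:69574460-69574759, plus strand: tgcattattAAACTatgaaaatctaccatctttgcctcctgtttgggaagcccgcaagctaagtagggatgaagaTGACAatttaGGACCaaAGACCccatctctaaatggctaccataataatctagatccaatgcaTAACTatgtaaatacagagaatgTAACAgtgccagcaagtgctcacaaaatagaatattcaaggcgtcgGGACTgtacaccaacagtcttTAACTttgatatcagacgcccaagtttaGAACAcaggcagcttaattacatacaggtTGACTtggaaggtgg

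The SPRED1 stretch had 4 DRACH sites, each with AGAC at its core, and no GGAC, although all 6 lists had a peak there. The SPRY1 stretch had 6 DRACH sites, 2 of them with GGAC, and the FRS2 stretch had 10, also 2 with GGAC. In the other transcripts 30 nt around 1 GGAC site of the peak are shown, with GGAC in capitals.
FGFR2, 3UTR, 6 of 6 lists, chr10:121479628-121479657, minus strand: tttctggagcagtGGACtgccacaagccac
ERBB2, coding sequence before the stop codon, 6 lists, chr17:39727979-39728008, plus strand: agcaccttcaaagGGACacctacggcagag
ETV5, 3UTR, 6 lists, chr3:186048261-186048290, minus strand: ctgcatcgatcatGGACtactaaatgcctt
DUSP5, 3UTR, 5 lists, chr10:110510595-110510624, plus strand: gggtaggttctcgGGACtgaaggaaggcca
FGF9, last coding exon, 3 lists, chr13:21701371-21701400, plus strand: tacctagaccagtGGACcccgacaaagtac
FGF4, 3UTR, hPSC list, chr11:69771591-69771620, minus strand: agccgctaagacaGGACcacacatcttaaa

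Member transcripts carried peaks at every stage, and 20 of the 39 genes had a peak in all 6 lists. The share of all genes with a peak in all 6 lists is not given here, so this count has no background. The number of members with a peak was 30 for hPSC, 31 for DE, 29 for PP, 29 for hILO, 33 for WT PP and 31 for A5-KO PP. These are 76.9% of members in hPSC (Wilson 95% interval 61.7% to 87.4%), 79.5% for DE, 74.4% for both PP and hILO, 84.6% for WT PP and 79.5% for A5-KO PP. Over all 16403 protein-coding genes with a peak in any list, the shares were 73.6% for hPSC, 69.7% for DE, 63.8% for PP, 70.5% for hILO, 76.7% for WT PP and 85.1% for A5-KO PP. Each of these lies within the interval of the members, also over the 38 members with a peak in any list (76.3% to 86.8%), so the share of members with a peak was near that of other genes. A gene without a peak may be one that is not expressed, and a lower level of the transcript and fewer cells that express it cannot be told apart in bulk samples.

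**Figure D1:**
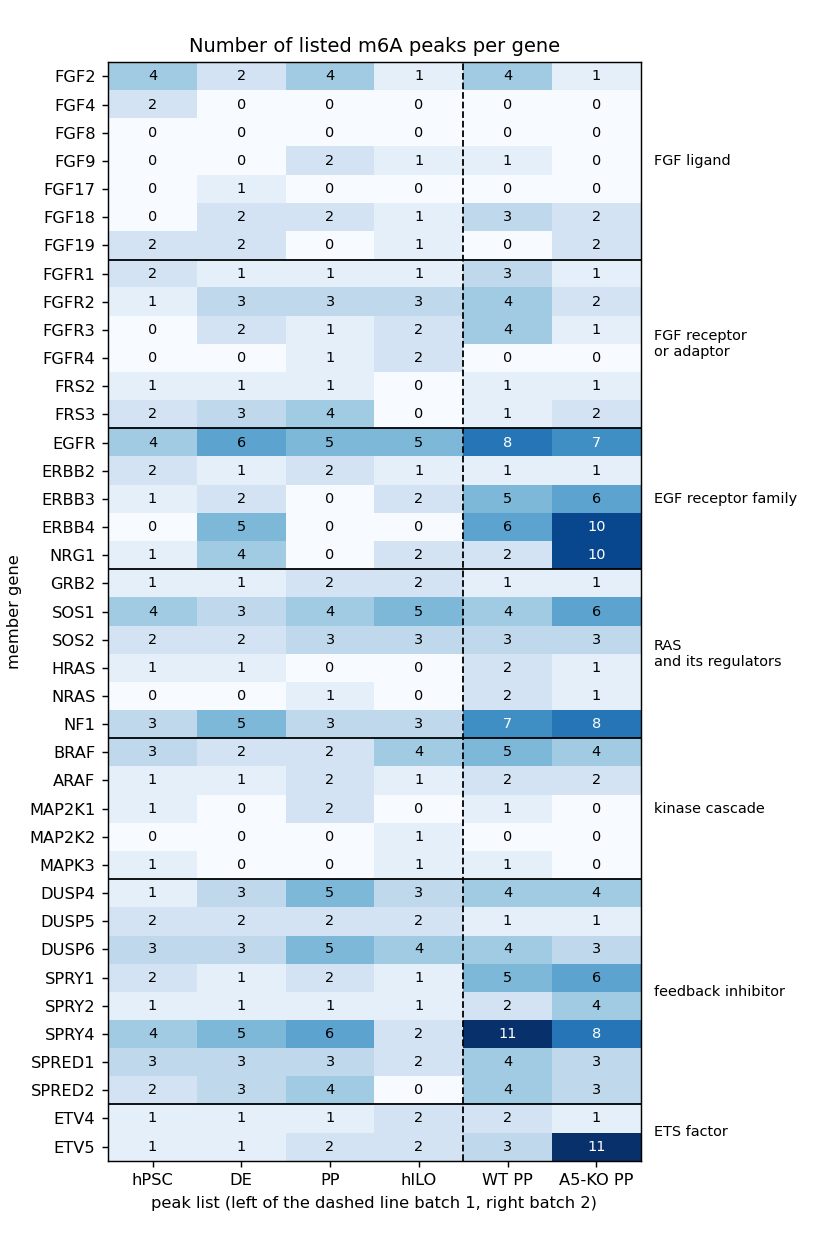
Number of listed m6A peaks on each of the 39 member genes (rows, grouped by role) in each of the 6 lists (columns), with the batches split by the dashed line. The feedback inhibitors have a peak in every list except SPRED2 in hILO, FGF4 has peaks only in hPSC and FGF17 only in DE, and the highest counts are 11 for SPRY4 in WT PP and for ETV5 in A5-KO PP.

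Among the FGF ligands the transcripts with peaks were the same in PP and WT PP (FGF2, FGF9 and FGF18), and every other list had another set. FGF4, a ligand of pluripotent cells, had 2 peaks in hPSC and none elsewhere. Both lay in the 3UTR, with 49 input and 771 IP reads on the first and 89 input and 1173 IP reads on the second. FGF17 had 1 peak, in the 5UTR in DE, matched to 3494 input and 8179 IP reads. FGF9, a ligand that acts between epithelium and mesenchyme, had peaks in PP (2), hILO (1) and WT PP (1), and in each of these lists 1 peak with 5 GGAC sites lay at the end of its coding sequence. FGF9 had no peak in A5-KO PP, hPSC or DE. FGF18 had peaks in every list but hPSC, and its rows also named an overlapping gene without a symbol, so its reads cannot be assigned to 1 of the pair.

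FGF19, a ligand of FGFR4, had 2 peaks in hPSC and in DE, 1 in hILO and 2 in A5-KO PP. The peak at its stop codon was listed in hPSC, DE and hILO, with relative enrichments of 0.39, 0.48 and 0.83. Relative enrichment means here the log2 of IP over input reads, with 1 added to each, minus the median of the same list, and it is given for peaks with at least 50 input reads unless stated. It was not corrected for GC content, and it says how strongly a peak stands out within its own list. The 2 peaks of FGF19 in A5-KO PP were matched to 1 and 8 input reads and are near the limit of counting. FGF2 had a peak in every list. A peak at the end of its coding sequence was listed in the 4 stages and in WT PP, and the A5-KO PP list held only a 3UTR peak of FGF2, 2730 nt after the stop codon. There the relative enrichment of FGF2 was 0.48 for hPSC (775 input reads), -0.44 for DE (74), -0.45 for PP (128), -0.68 for hILO (799) and -0.51 for WT PP (463). It stood above the list median in hPSC and below it in the other 4 lists. FGF8 had no peak in any list.

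FGFR2, the receptor for KGF, had its peak just after the stop codon in all 6 lists, over 475 to 650 nt with 5 or 6 GGAC sites. The matched input and IP reads there were 624 and 8967 in hPSC, 189 and 674 in DE, 2900 and 9706 in hILO, 819 and 6395 in WT PP, and 485 and 3362 in A5-KO PP. The relative enrichment was 0.67 for hPSC, 0.60 for DE, 0.39 for hILO, 1.56 for WT PP and 1.46 for A5-KO PP, above the list median each time, and the PP peak had no match. Relative values in the second batch spread more widely over all peaks, with quartiles of -0.85 and 0.87 in WT PP against -0.28 and 0.36 in hPSC, so they are not on the scale of the first batch. A second FGFR2 site, in a coding exon near the start of the receptor, was listed in DE, PP, WT PP and A5-KO PP.

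FGFR3 had peaks in every list but hPSC, and FGFR4 had peaks in PP (1) and hILO (2) alone. The FGFR3 peak about 590 nt after the stop codon recurred in 5 lists and held no GGAC. FGFR1 had 1 to 3 peaks per list, 2 of them in hPSC, where the one beside the stop codon had 2349 input and 19147 IP reads. The adaptor FRS2 had a single long peak inside its last coding exon in 5 lists, and none in hILO. Its relative enrichment was 1.17 for hPSC, 0.78 for DE, 1.96 for WT PP and 1.11 for A5-KO PP. The value in hPSC was the highest of the 35 member peaks with 50 input reads in that list. FRS3 followed the same pattern of lists, with 2, 3 and 4 peaks in hPSC, DE and PP, none in hILO, and 1 and 2 in WT PP and A5-KO PP.

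EGFR, the receptor for EGF, had between 4 and 8 peaks per list, many of them in its long 3UTR. The stretch that follows its stop codon held peaks in all 6 lists. In hPSC these 4 peaks had only 7 to 13 input reads each, and in DE 3 peaks had 3 to 6. In hILO the stretch was split into peaks with 856 and 583 input reads, and the relative enrichments were 0.39 and 0.66. WT PP and A5-KO PP each had 1 long peak there, with 1943 and 2233 input reads and relative enrichments of 1.77 and 1.49. EGFR was thus near the limit of counting in hPSC and DE and well covered in hILO, WT PP and A5-KO PP, and in PP its 5 peaks had no match above the weight limit.

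ERBB2, the receptor without a ligand of its own, had 1 peak of 775 to 875 nt over its stop codon region in every list. The input reads were 2550, 2332, 1524, 2577, 2839 and 2152, and the relative enrichment was 0.35 for hPSC, 0.41 for DE, 0.25 for PP, 0.25 for hILO, 1.20 for WT PP and 1.09 for A5-KO PP. From stage to stage the ERBB2 values differed by 0.16 or less, and by -0.11 between the lists of batch 2. ERBB3 had peaks in every list but PP, and all 16 of its rows also named an overlapping gene without a symbol, some of them PA2G4 as well, and 2 of the 16 lay outside ERBB3. ERBB4 had no peak in hPSC, PP and hILO, 5 for DE, 6 for WT PP and 10 for A5-KO PP. Its DE peaks lay around and after the stop codon, with 122 to 276 input reads, while those of WT PP had 0 to 53. NRG1, a ligand of ERBB3 and ERBB4, had peaks in every list but PP, 10 of them in A5-KO PP, and its rows also named a second gene.

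Many peaks on NRG1, ERBB4 and ETV5 in A5-KO PP spanned long introns. Of the 116 member peaks of A5-KO PP, 22 spanned more than 10000 nt of genome, introns included (19%), against 4 of 111 in WT PP (3.6%) and 2 to 4 per list in the 4 stages. Of the 22, 8 were on ERBB4, 7 on NRG1 and 5 on rows of ETV5. They joined short parts of distant exons, most with an exonic length of 175 nt. Such peaks were also listed on NRG1 in hPSC and DE (1 each) and on ETV5 in PP (1). Over all peaks the shares were 22.9% in A5-KO PP, 6.52% in WT PP and 4.39% to 8.44% in the stages. The order of the member peak counts of WT PP and A5-KO PP was not stable. Without peaks of this span A5-KO PP had 94 and WT PP 107, without peaks listed under several genes they had 87 and 98, and with lists of equal size 73 and 77.

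SOS1, the exchange factor that loads RAS, had 3 to 6 peaks in every list and 2 sites that recurred in all 6. The first ran from the last coding exon into the 3UTR, with relative enrichments of 0.81 for hPSC, 0.45 for DE, 0.43 for PP, 0.71 for hILO, 1.47 for WT PP and 1.13 for A5-KO PP. The second lay in a coding exon far upstream of the stop codon. SOS2 had 2 or 3 peaks per list, again with 2 coding sites in all 6 lists, and no 3UTR peak. GRB2, the adaptor that carries SOS, had 1 weak peak in its 3UTR throughout. It held no GGAC, and its relative enrichment was -0.03 for hPSC, -0.39 for DE, -0.45 for PP, -0.47 for hILO, -1.37 for WT PP and -1.65 for A5-KO PP, below the list median each time.

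HRAS had a 3UTR peak in hPSC, DE, WT PP and A5-KO PP and none in PP and hILO. It had 296 input and 4334 IP reads in hPSC and 1609 input and 6163 IP reads in DE, with relative enrichments of 0.69 and 0.71. In A5-KO PP this peak was shorter, 125 against 275 nt in WT PP, and had 14 input reads. NRAS had 1 peak in PP, 2 peaks in WT PP and a single one in A5-KO PP. NF1, the GTPase activator that switches RAS off, had 3 to 8 peaks in every list, spread over its long coding sequence and its 3UTR. With at least 50 input reads its values were mostly below the list median. In A5-KO PP 4 of the 5 NF1 peaks with at least 50 input reads lay between -1.31 and -2.48, and the other was at 0.39.

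The kinases had 17 sites, none of which recurred in all 6 lists. BRAF had 2 to 5 peaks and ARAF 1 or 2 in each list. The BRAF peaks lay in its coding sequence and its 3UTR and held no GGAC in hPSC, DE and PP. The 3UTR peak of ARAF, with 1 GGAC, was listed in every population but hILO. MAP2K1 had peaks in hPSC, PP and WT PP, MAPK3 in hPSC, hILO and WT PP, and MAP2K2 only in hILO. MAP2K1 had its peak at the start of the transcript in hPSC (150 input reads) and WT PP (427). In A5-KO PP none of MAP2K1, MAP2K2 and MAPK3 had a peak, and in DE likewise.

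The feedback inhibitors had peaks throughout. All 8 had a peak in every list except SPRED2, which had none in hILO. Of their 36 sites, 7 recurred in all 6 lists and 14 in at least 5, whereas 6 were found in 1 list only. RAS and its regulators had 27 sites, of which 5 recurred in all 6 lists, 6 in at least 5, and 11 were found in 1 list only. Over all member sites, 16 of 184 recurred in all 6 lists (8.7%), against 9.4% of the 87989 sites of the whole series, and 47.3% were found in 1 list, against 53.4%. A site means here a run of peaks that overlap over the 6 lists. The 184 member sites were therefore close to the whole series in this respect. Of the 87 member sites found in 1 list, 31 were of A5-KO PP, 25 of WT PP, 14 of hILO, 8 of PP, 6 of DE and 3 of hPSC. The same split over the whole series is not given here, so these counts have no background. The lists also differ in size, from 29083 peaks in PP to 55219 in A5-KO PP.

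SPRED1, which binds NF1 and holds RAS off, had the same coding peak in every list, at nearly the same bounds in the 4 stages and longer in WT PP, and no list had a GGAC in it. The relative enrichment was 0.71 for hPSC, 0.70 for DE, 0.61 for PP, 1.65 for WT PP and 1.45 for A5-KO PP, and the hILO peak had no match. The values of the 3 matched stages differed by 0.10 or less from one to the next. SPRED2 had 10 to 12 GGAC sites in its peaks over the end of the coding sequence. This was the strongest member peak of the second batch with at least 50 input reads, at 2.28 in WT PP with 1176 input and 15125 IP reads, and at 2.02 in A5-KO PP with 1045 and 10660.

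SPRY1 had a coding peak in every list, and SPRY2 in every list but PP, where its only peak lay in the leader. For SPRY1 it was 200 to 1275 nt long, and the relative enrichment was 0.79 for hPSC, 0.51 for PP, 0.70 for hILO, 1.35 for WT PP and 0.95 for A5-KO PP. In DE the SPRY1 peak had 21 input reads. For SPRY2 the coding peak had 620 input and 7956 IP reads in hPSC, 1215 and 4956 in DE and 1610 and 6421 in hILO, with relative enrichments of 0.51, 0.80 and 0.64. WT PP had a single peak over the whole SPRY2 coding sequence and part of the leader, and A5-KO PP had 3 shorter ones in the same stretch. SPRY4 had 2 to 11 peaks per list, over the coding sequence and the 3UTR. A stretch far into the SPRY4 3UTR, with its midpoint 3034 nt after the stop codon in hPSC, had a peak in 5 lists and none in hILO.

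DUSP5, an ERK phosphatase of the nucleus, had a peak after the stop codon in 5 lists, and hILO listed short peaks on either side of that stretch. The reads there were 124 input and 2150 IP in hPSC, 1151 and 4591 in DE, 8279 and 50819 in PP, 19249 and 190333 in WT PP, and 18054 and 116987 in A5-KO PP. The WT PP counts were the highest of any matched member peak. The relative enrichment of DUSP5 was 0.93, 0.76, 0.56, 1.90 and 1.37 in the same order. DUSP6, the ERK phosphatase of the cytoplasm, had 3 to 5 peaks per list, with up to 9 GGAC sites in the one that joins the coding sequence to the 3UTR. Those peaks had relative enrichments of 0.61 in hPSC, 0.35 and 0.18 in DE, 0.27 and -0.03 in hILO, and 1.02 in A5-KO PP. WT PP listed no peak over this stretch of DUSP6, while it listed peaks on either side, and 9.51% of its numbered peaks were not listed. DUSP4 had a 3UTR peak in all lists, at 0.36 for DE, 0.46 for PP, 0.52 for hILO, 0.59 for WT PP and 0.82 for A5-KO PP, and 13 input reads in hPSC.

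Of the ETS factors, ETV5 had the same 3UTR peak with 3 GGAC sites in all 6 lists, at 0.27 in hPSC and 0.12 in DE. The rows of ETV5 also named DGKG, its neighbour on the same strand, and 7 of the 20 ETV5 peaks lay outside ETV5, 6 of them in A5-KO PP. The 11 ETV5 peaks of A5-KO PP are for this reason not 11 peaks of the ETV5 transcript. ETV4 had a 3UTR peak in hPSC, DE, hILO and WT PP, and a coding peak in PP, hILO and WT PP. Its relative enrichment at the 3UTR peak was -0.26 for DE, -0.52 for hILO and -0.59 for WT PP. In A5-KO PP the 3UTR peak of ETV4 was not listed.

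The input level of several member transcripts differed between lists. Input level is again in RPKM, scaled to the input reads in listed peaks. DUSP5 had 2 neighbouring peaks in the first 3 stages, at 36.6 and 33.5 for hPSC, 174 and 196 for DE and 2788 and 2412 for PP. A peak of 50 nt in hILO was at 1099, and the single peak was at 879 for WT PP and 1420 for A5-KO PP. FGF2 had 324 in hPSC and 26.1 in DE at its stop codon, and DUSP4 had 9.32 in hPSC and 194 in DE at a 3UTR peak. The coding peak of SPRY1 was at 61 for hPSC, 8.33 for DE, 212 for PP and 26.8 for hILO. The 3UTR peak of ERBB2 stayed within 110 to 400 over the 6 lists. These are levels inside peaks, over peaks of unequal bounds, and the matching used the reads of the same gene in other lists, so levels were in part drawn towards each other.

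**Figure D2:**
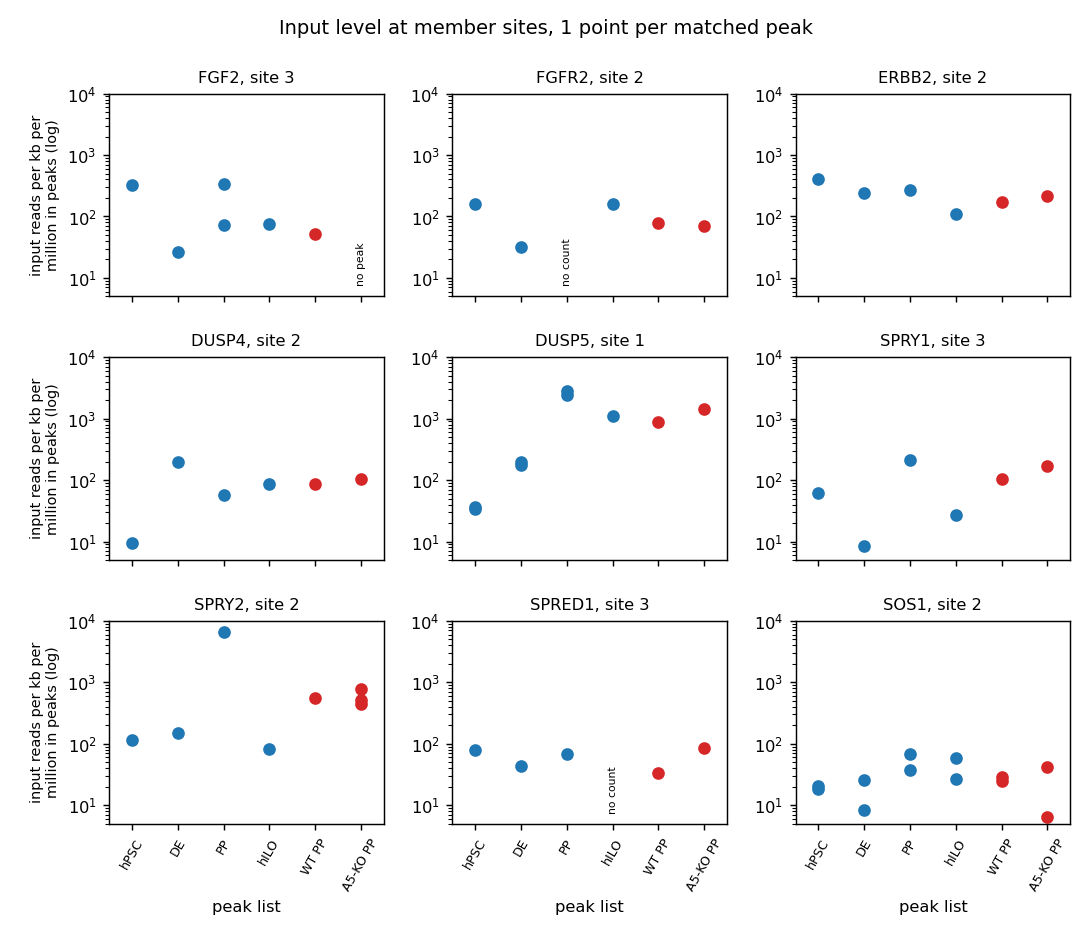
Input level in RPKM, scaled to the input reads in listed peaks (log axis), at 9 member sites, numbered along the chromosome, with 1 point per matched peak (blue, batch 1, and red, batch 2). DUSP5 runs from 33.5 in hPSC to 2788 in PP while the ERBB2 site stays between 110 and 400, and the SPRY2 point of 6625 in PP is the doubtful match named in the text.

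Member peaks lay in the CDS and the 3UTR, with the 3UTR ahead in hPSC, DE, WT PP and A5-KO PP. Placed by its midpoint on the longest coding isoform, a member peak lay in the CDS in 41.8% of cases in hPSC (Wilson 95% interval 29.7% to 55%), 37.1% for DE (26.8% to 48.9%), 44.6% for PP (33.8% to 55.9%), 52.7% for hILO (39.8% to 65.3%), 32.7% for WT PP (24.4% to 42.2%) and 44.3% for A5-KO PP (34.8% to 54.2%). Over all peaks the CDS held 51.4%, 49.7%, 54.8%, 52.3%, 48.2% and 55.2%. The members were below this in 5 lists and near it in hILO, and in DE, WT PP and A5-KO PP their interval did not reach it. Peaks of 1 transcript are not independent, and several members with long 3UTRs, such as EGFR and SPRY4, gave many peaks. Within 200 nt of the stop codon lay 32.7% of member peaks in hPSC (21.8% to 45.9%), against 19.3% of all peaks. In the other lists the member share was 20% (DE), 18.9% (PP), 27.3% (hILO), 18.3% (WT PP) and 15.5% (A5-KO PP), with 20.5%, 18.8%, 20.3%, 17.8% and 16.8% over all peaks, and each of these lay within the members' interval.

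**Figure D3:**
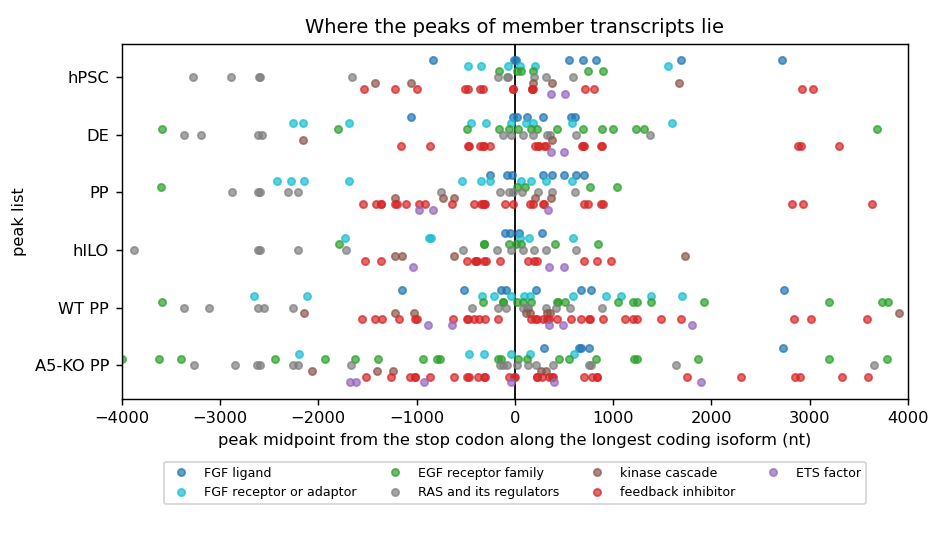
Midpoints of member peaks along the longest coding isoform, in nt from the stop codon (vertical line, negative values are coding sequence or 5UTR), for each list and coloured by role. Feedback inhibitors (red) have peaks on both sides of the stop codon in each list, and their peaks far into the 3UTR, such as that of SPRY4 at 3034 nt in hPSC, are missing in hILO.

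GGAC was found in 64.4% of member peaks in hPSC (51.7% to 75.4%), 60.3% for DE, 50% for PP, 55.7% for hILO, 62.2% for WT PP and 52.6% for A5-KO PP. Over all peaks of the same lists the shares were 57.7%, 54.5%, 51.3%, 55.8%, 56.8% and 53.7%. On the opposite strand, which served as the background, GGAC was in 31.6% to 54.2% of member peaks. DRACH was in 94.9% of member peaks in hPSC and 78.9% in PP (68.5% to 86.6%), against 89% of all PP peaks. The member peaks of PP were also shorter, with a median exonic length of 125 nt against 175 to 200 nt in the other lists. Its part in the motif share was not tested. A motif match is a sequence feature and not a measured site.

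To ask how many peaks were passed on from stage to stage, a peak was called shared when over 50% of its exonic length was covered by peaks of the other list on the same strand. Of the member peaks, 40 of 73 in DE were shared with hPSC (54.8%, Wilson 95% interval 43.4% to 65.7%), against 64.7% of all DE peaks. In PP 40 of 76 were shared with DE (52.6%, 41.6% to 63.5%), against 57%, and in hILO 25 of 61 were shared with PP (41%, 29.5% to 53.5%), against 45.6%. The member shares were below the background in all 3 steps, each with the background inside the interval. Where each peak had to cover over 50% of the other, the hILO share was 37.7%, against 37.2% of all, and so not below it. Between WT PP and A5-KO PP, 68 of the 116 A5-KO PP peaks were shared (58.6%, 49.5% to 67.2%), against 46.8% of all, and 57 of the 111 WT PP peaks (51.4%, 42.2% to 60.4%), against 50%. The first of these was above its background, but when each peak had to cover over 50% of the other it was 37.9% (29.6% to 47%), against 30.6% of all, with the background inside the interval.

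**Figure D4:**
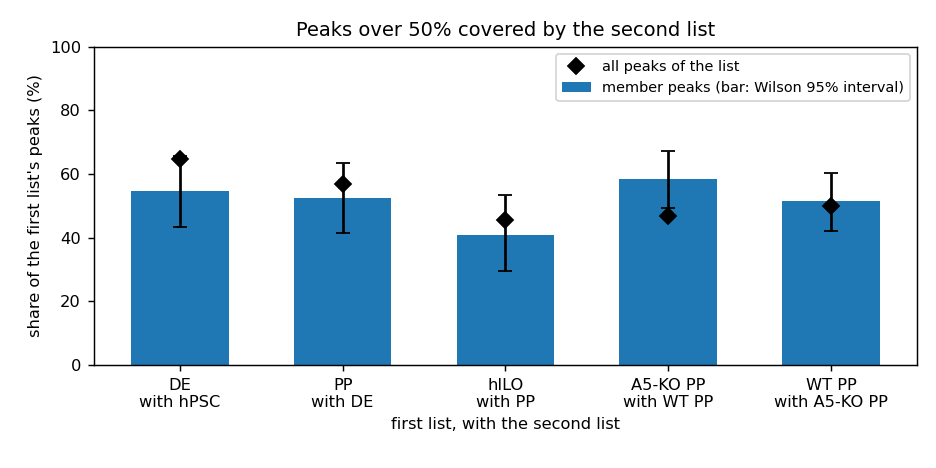
Share of member peaks of 1 list (bars, with Wilson 95% intervals) that were over 50% covered by peaks of a second list, beside the share over all peaks of the first list (diamonds). The member shares run from 54.8% in DE to 41% in hILO, and for A5-KO PP the member share of 58.6% stands above the 46.8% of all peaks, while with reciprocal overlap, not drawn, the 30.6% of all peaks lies inside the members' interval of 29.6% to 47%.

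By gene, 27 members had a peak in both hPSC and DE, while FGF4, MAP2K1 and MAPK3 had one only in hPSC and FGF17, FGF18, FGFR3 and ERBB4 only in DE. Of the members with a peak in hPSC 90% had one in DE, against 86.1% of protein-coding genes, and in the other direction 87.1%, against 90.9%. From DE to PP, 25 had a peak in both lists. FGF17, FGF19, ERBB3, ERBB4, NRG1 and HRAS had one only in DE, and FGF9, FGFR4, NRAS and MAP2K1 only in PP. The shares were 80.6% of DE members, against 80.8% of genes, and 86.2% of PP members, against 88.3%. From PP to hILO, 24 had a peak in both. FRS2, FRS3, NRAS, MAP2K1 and SPRED2 had one only in PP, and FGF19, ERBB3, NRG1, MAP2K2 and MAPK3 only in hILO. The share was 82.8% in both directions, against 89.9% of genes with a peak in PP and 81.3% of those in hILO. In these 3 steps the share over all genes lay within the members' Wilson interval each time.

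Between WT PP and A5-KO PP, 30 had a peak in both, FGF9, MAP2K1 and MAPK3 only in WT PP and FGF19 only in A5-KO PP. These are 90.9% of WT PP members, against 91.9% of genes, and 96.8% of A5-KO PP members (83.8% to 99.4%), against 82.8%. PP and WT PP, side by side, had 28 in common, with FGFR4 in PP alone and ERBB3, ERBB4, NRG1, HRAS and MAPK3 in WT PP alone. Those in common are 96.6% of PP members and 84.8% of WT PP members, where all genes gave 91.2% and 75.8%.

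The relative enrichment of shared member peaks differed little between stages. From hPSC to DE it could be compared for 23 member peaks on 16 genes, each with 50 or more input reads on either side. The median difference, DE minus hPSC, was -0.15, against -0.07 over all shared peaks. The member values ran from -0.92 to 0.53, and 15 of the 23 were lower in DE. No member peak differed by 1 or more on the log2 scale in either direction, and over all 12107 such peaks 0.149% were at least 1 higher and 0.545% at least 1 lower. The lowest value was the stop codon peak of FGF2, which went from 0.48 to -0.44 with a counting error of 0.22, and next were a 3UTR peak of SPRED2 at -0.78 and DUSP6 at -0.42. A single hPSC peak of SPRED2 was set there against separate DE peaks, and its coding part differed by 0.08. FGF19, at 0.53, and SPRY2, at 0.29, were the highest.

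From DE to PP, 14 member peaks on 10 genes had values in both lists, and 11 of them were lower in PP. Their median difference was -0.05, against -0.11 over all shared peaks. With the deposited log2 enrichment of the matched counts the member median was 0.15, the opposite sign. None differed by 1 or more, against 0.726% of all 7302 peaks higher and 0.698% lower. The lowest was the coding peak of SPRED2, from 1.00 to 0.05, while its 3UTR peak went from 0.13 to 0.46. From PP to hILO, 10 member peaks on 8 genes had a median difference of 0.11, against 0.14 over all shared peaks. The member values ran from -0.41 for ARAF to 0.47 for SOS1, and 7 were higher in hILO. None differed by 1 or more, against 1.15% of all 6808 peaks higher and 0.911% lower. These steps rest on few members, and with the deposited log2 enrichment of the matched counts the PP to hILO median was -0.64. The counting error of a member difference had a median of 0.13 to 0.15 in the 3 steps, and the spread between cultures is not known.

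**Figure D5:**
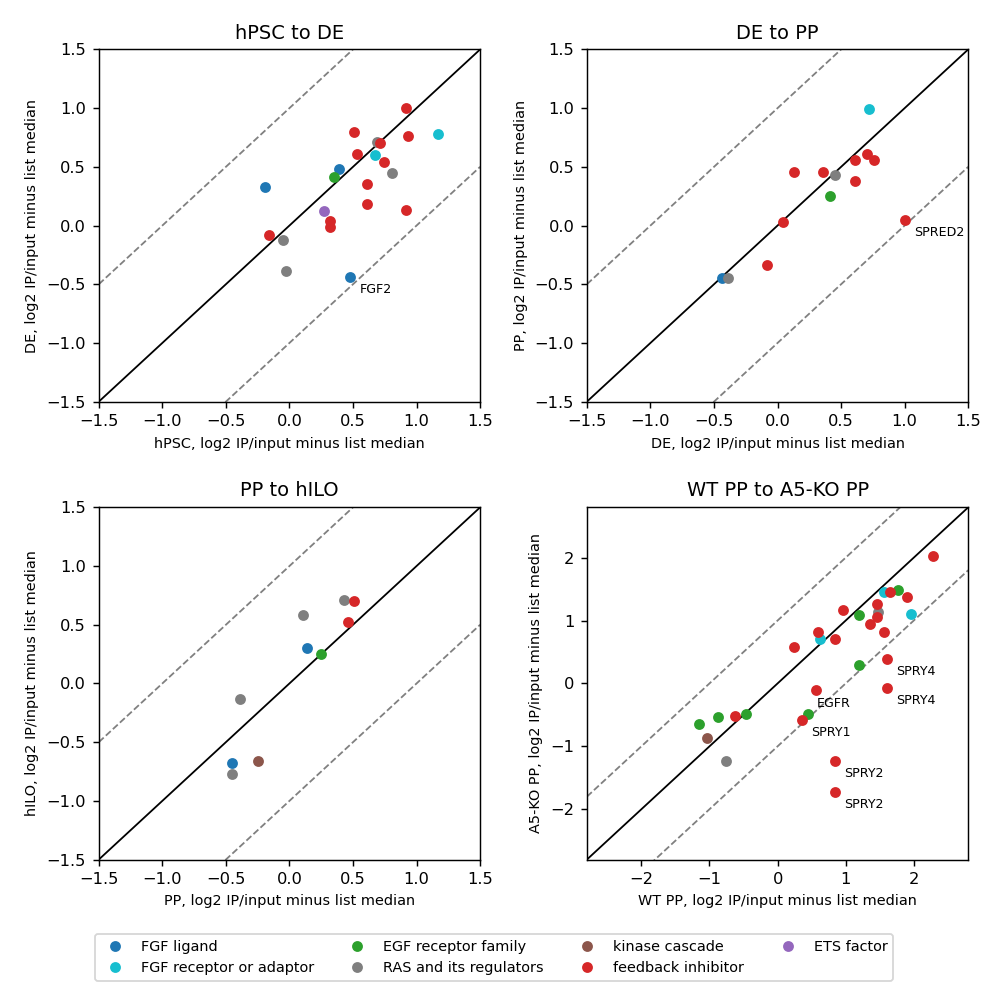
Relative enrichment (log2 IP over input minus the list median) of shared member peaks in the first list (horizontal) and the second list (vertical) of 4 comparisons, 1 point per pair, coloured by role. The solid line marks equal values and the dashed lines a difference of 1. All 47 pairs of the 3 stage steps lie between the dashed lines, and in WT PP to A5-KO PP 4 pairs, of SPRY2 and SPRY4, lie below.

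To ask how peaks differed when ALKBH5 was lost, WT PP and A5-KO PP were compared over 31 shared member peaks on 15 genes. The median difference, A5-KO PP minus WT PP, was -0.28 on the log2 scale, against -0.19 over all 9122 shared peaks. Of the 31, 23 were lower in A5-KO PP. Lower values also outnumbered higher ones over all shared peaks, as their negative median shows. No member peak was at least 1 higher, against 5.39% of all peaks, and 4 were at least 1 lower, against 14% of all. The share of lower calls was near the background. The counts depend on the setting. With a minimum of 10 input reads 4 were higher, with no minimum 5 were higher and 7 lower, and with the deposited log2 enrichment of the matched counts 3 were higher and 10 lower. These values are relative to the median of each list, so they do not show whether m6A as a whole was higher or lower in A5-KO PP. The direction rests on the matching, since with the counts as listed the median was 0.27, and with the log2 enrichment as listed 0.86.

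The 4 lower pairs came from only 2 peaks of WT PP. For SPRY2, a WT PP peak of 1125 nt at 0.85 was set against 3 peaks of A5-KO PP, which stood at 0.71 in the coding sequence, -1.23 at its end and -1.72 in the leader, where the A5-KO PP peak runs beyond that of WT PP. For SPRY4, a WT PP peak of 900 nt in the 3UTR at 1.61 was set against 2 peaks of A5-KO PP, at 0.39 and -0.07. Where each peak had to cover over 50% of the other, none of the 4 remained. The SPRY2 coding peak itself differed by -0.14. Lower in A5-KO PP by less than 1 were peaks of FRS2 (1.96 and 1.11), DUSP5 (1.90 and 1.37), SPRY1 (1.35 and 0.95), SPRED2 (2.28 and 2.02), SOS1 (1.47 and 1.13) and EGFR (1.77 and 1.49). FGFR2, at 1.56 and 1.46, differed by -0.10, and ERBB2, at 1.20 and 1.09, by -0.11. The counting error of these differences was 0.02 to 0.09. On fewer reads, with counting errors of 0.15 to 0.28, stood the differences of 3UTR peaks of SPRY1 (-0.94), EGFR (-0.93 and -0.89) and SPRED1 (-0.75) and of a coding peak of DUSP4 (-0.68). The other 5 lower pairs, of SOS1, SPRY4, SPRED1 and EGFR, differed by -0.48 to -0.03. In 8 pairs the value was higher in A5-KO PP, by 0.08 to 0.52. They were a 3UTR peak of ERBB3 (-1.16 and -0.64), set against a far longer WT PP peak that runs past the end of the gene, a coding peak of SPRY4 (0.24 and 0.58), a far 3UTR peak of EGFR (-0.87 and -0.53), a 3UTR and a coding peak of DUSP4 (0.59 and 0.82, 0.96 and 1.17), and peaks of BRAF, SPRED2 and FRS3 with differences of 0.17, 0.12 and 0.08.

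Of 50 other genes of the pathway, among them further ligands, adaptors, RAS regulators and ERK targets, 46 had a peak in at least 1 list. The number with a peak was 34 for hPSC, 26 for DE, 26 for PP, 33 for hILO, 36 for WT PP and 42 for A5-KO PP. Of these 46 genes, 73.9%, 56.5%, 56.5%, 71.7%, 78.3% and 91.3% had a peak in the respective list. The share over all protein-coding genes with a peak in any list, given above, lay within the Wilson interval in each list. FGF3, FGF21, EREG and EPGN had none. The adaptor genes SHC1 and GAB1 had 3 to 8 peaks in every list. FGF7, which encodes KGF, had 1 peak, in A5-KO PP. HBEGF, a ligand of EGFR, had 1 or 2 peaks in every list, and TGFA, another, had 1 for hPSC, 3 for PP, 1 for WT PP and 2 for A5-KO PP.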

How the data were processed

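The authors trimmed reads with fastp and aligned them with HISAT2 to GRCh38, and HOMER is named in the submitters' processing notes. Peaks were called with exomePeak2, 1 list per population from its 4 libraries. The deposited lists hold pooled IP and input read counts, a log2 enrichment (at least 0.585) and a p-value for each peak. Whether the counts are sums or means is not stated.

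Counts and coordinates were misaligned in the lists. Counts were therefore matched to peaks with a hidden Markov model and used at a weight above 0.9. The model was tested on simulated data drawn under its own assumptions, which cannot show that the real lists were matched rightly. The comparison had been planned on the deposited log2 enrichment. The matched log2 ratio replaced it after the data were seen. It used a pseudocount of 1, at least 50 input reads and subtraction of the list median, with no GC correction, and a difference of 1 was called. Peaks were placed on GENCODE 44 isoforms. Wilson 95% intervals and Poisson errors cover counting error only. Every member was named and described. The members and lists were chosen with earlier results of these data known. Alternatives changed thresholds, overlap, list size, minimum reads, scale, motif and matching. Python 3.11.15, NumPy 2.4.6, SciPy 1.17.1 and matplotlib 3.10.9 were used.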

Additional observations from a re-analysis of the deposited data

How the results depend on the processing

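No paired analysis was possible because each list pools the libraries of its population, and no library was left out for the same reason. The median peak had 33 input reads in A5-KO PP, which limits the ratios of weakly covered members such as ERBB4 and FGF19 there. Of 206 alternative values for 41 results, 154 stayed within the tolerance, which was 1.5 times for a count, the Wilson interval for a share and the median counting error for a median difference, and the cause of the other moves was not tested. Within it, member peaks still went from 61 to 45 in hILO at a log2 enrichment of at least 1, and from 76 to 52 in PP with p below 1e-05. Alternatives on the matching, the match weight, long spans and peaks listed under several genes were chosen after seeing the data. With p below 1e-05, member peaks numbered 39 (hPSC), 63 (WT PP) and 73 (A5-KO PP), and with lists of equal size (27731 peaks) 73 in A5-KO PP and 77 in WT PP.

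With reciprocal overlap the shared shares were 41.1% in DE, 36.8% in PP, 37.7% in hILO, 37.9% in A5-KO PP and 40.5% in WT PP. No WT PP to A5-KO PP pair (0) was then at least 1 lower. With any overlap the WT PP share was 61.3%. GGAC was replaced by DRACH at 94.9%, 95.9%, 78.9%, 90.2%, 90.1% and 90.5% from hPSC to A5-KO PP. On the opposite strand GGAC was in 35.6% in DE, 31.6% in PP, 42.6% in hILO and 44.1% in WT PP. With any overlap the CDS share was 65.5% in hILO and 44.2% in WT PP.

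The median difference from hPSC to DE was 0.03 with counts as listed. From DE to PP it was 0.15 with the deposited enrichment of the matched counts and -0.25 with the enrichment as listed. From PP to hILO it was -0.64 with the deposited enrichment of the matched counts, 0.26 with no minimum weight and 0.31 with counts as listed. From WT PP to A5-KO PP it was 0.27 with counts as listed and 0.86 with the enrichment as listed.

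Without a minimum of input reads, 1 member peak was at least 1 higher from hPSC to DE, 1 lower from DE to PP, and 5 higher and 7 lower from WT PP to A5-KO PP. With a minimum of 10, 1 was lower from DE to PP and 4 higher from WT PP to A5-KO PP. With the deposited enrichment of the matched counts, 1 was lower from DE to PP, 1 lower from PP to hILO, and 3 higher and 10 lower from WT PP to A5-KO PP. With no minimum weight, 1 was lower in each of the first 2 steps, 1 higher from PP to hILO and 2 higher from WT PP to A5-KO PP. With counts as listed, 2 were lower from DE to PP, 2 higher and 1 lower from PP to hILO, and 11 higher from WT PP to A5-KO PP. With the enrichment as listed, 3 were lower from DE to PP, 1 higher and 3 lower from PP to hILO, and 13 higher from WT PP to A5-KO PP.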
